A study of Homo sapiens with 4 samples.

Results

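The genes described here are 45 genes of DNA replication and nucleotide supply, of the 18132 genes that the arrays measured. They were listed by their function, with earlier results of these data known, and for each gene the values are those of the probe set whose mean over the 4 arrays was highest. All 45 were on the array, and all 45 lay above the floor used for dim probe sets (log2 6.75, the median of all gene probe sets) on all 4 arrays, so the filter removed none of them. A total of 10958 genes passed that filter, and they serve as the background below.

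The cells were A549, an established line from a human lung adenocarcinoma, and RNA was taken at 48 h from 4 cultures. One was left without drug, one received 25 μmol/L dihydroberberine (the dihydro derivative of berberine, an alkaloid made by plants), one received 2 μmol/L sunitinib (an inhibitor of receptor tyrosine kinases) and one received both drugs at these doses. Each condition was 1 array, so no difference has a replicate check and no test was run: "higher" and "lower" compare single arrays. Values are log2 signals of a probe set, a difference is a log2 difference of 2 arrays, and a gene was called higher or lower at 1.5-fold. In bulk RNA, fewer cells in S phase and less of a transcript per cell cannot be told apart.

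Before a cell copies its DNA, the origin recognition complex (ORC), CDC6 and CDT1 load the MCM2 to MCM7 ring on origins in G1, a step called licensing, which geminin (GMNN) blocks once S phase has begun. CDC45 and the GINS complex turn the ring into the active helicase, DNA polymerases α, δ and ε copy the strands with the sliding clamp PCNA and its loader RFC, and FEN1 and LIG1 join the fragments of the lagging strand. Thymidylate synthase, thymidine kinase and ribonucleotide reductase supply the deoxynucleotides. Many of these genes are transcribed at the boundary of G1 and S by E2F factors, which the retinoblastoma protein restrains.

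The 4 arrays had median log2 signals of 6.73 to 6.76 over gene probe sets and correlated at r = 0.986 to 0.994 across them. The dihydroberberine array stood apart in its controls: against untreated cells the Alu probe set differed by -0.41, the 18S rRNA probe sets by -0.63 and the 28S rRNA probe sets by 0.46, whereas with both drugs against sunitinib these were 0.00, 0.02 and -0.09. The untreated array stood apart in its background probes, with a median of 6.70 against 7.15 with dihydroberberine, 6.99 with sunitinib and 6.95 with both, and 18S rRNA differed by -0.24 with sunitinib against untreated cells. The genes above the floor on all arrays had a median 0.13 lower on the dihydroberberine array than on the untreated array, a shift written as -0.13. The part of these shifts in the differences below was not tested, and the comparison of both drugs with sunitinib uses neither the dihydroberberine nor the untreated array. Of 9 markers of A549 cells, 7 passed the floor, among them KRT8 (13.39 to 13.63) and NQO1 (14.57 to 14.77), while EPCAM and CDH1 were under it on all arrays. Of 9 measured markers of blood, endothelial and stromal cells, 3 passed it, CD14, PDGFRB and VWF; PTPRC, CD3E, PECAM1, CDH5, COL1A1 and COL3A1 were under it on all arrays. CD14 read 8.82 in untreated cells and 6.75, 6.27 and 5.76 with dihydroberberine, sunitinib and both. Whether CD14 has a part in any value below was not tested.

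Most replication genes were highest without drug and lowest where dihydroberberine was present. The untreated array was the highest of the 4 for 30 of 45 genes. The array with both drugs was the lowest for 25, that with dihydroberberine alone for 14, the untreated for 6 and that with sunitinib alone for 0. With both drugs against untreated cells the median difference of the 45 genes was -0.52, against -0.02 over all genes that passed. Of the 45, 20 were at least 1.5-fold lower, where the share of all genes was 7.24%, and 0 at least 1.5-fold higher, where it was 6.85%. By the probe sets used, only CDT1, TK1, MCM2 and MCM4 were past 2-fold in this comparison, all lower. Other probe sets of MCM7, FEN1 and GINS4 reached -1.13, -1.11 and -1.13. Those of CDT1, MCM2 and MCM4 that differed least gave -0.77, -0.70 and -0.995. Of all 10958 genes, 164 were at least 2-fold lower in it and 127 at least 2-fold higher.

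**Figure D1:**
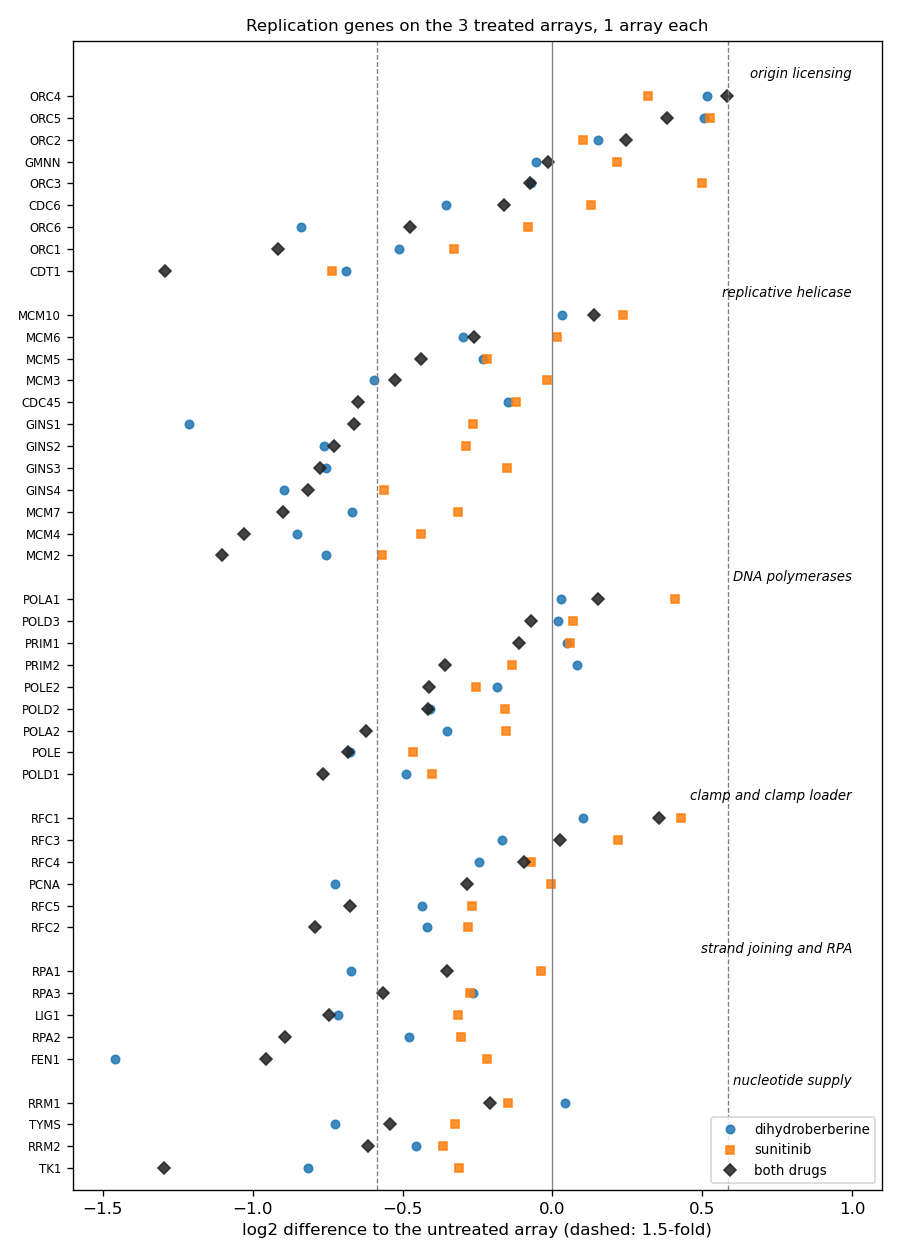
Log2 difference of each of the 45 genes to the untreated array, for the arrays with dihydroberberine (circles), sunitinib (squares) and both drugs (diamonds), grouped by role, with 1 array per condition and no error bars. Most symbols lie left of 0, the CDT1 and TK1 diamonds lie at -1.29 and -1.30, and ORC4, ORC5 and ORC2 lie right of 0 on all 3 arrays.

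The difference between arrays with and without dihydroberberine was read from 2 pairs with no array in common. Against untreated cells the 45 genes had a median of -0.42 (all genes: -0.03), and with both drugs against sunitinib one of -0.29 (all genes: 0.00). In the first comparison 17 genes were called lower, against 12.6% of all genes, and 0 higher, against 4.86%. In the second 7 were called lower, against 1.47% of all genes, and 0 higher, against 3.58%. The sign was negative in both pairs for 35 of 45 genes (77.8%), against 32.2% of all genes, and MCM4, MCM7, GINS3, FEN1 and TK1 were called lower in both (11.1% of the 45 genes against 0.931% of all genes). ORC2 and ORC4 were positive in both. When each array was centred on the genes above the floor on all arrays, the first count was 11 lower and 2 higher and the second 11 lower and 0 higher. Over all 11049 genes that then passed, 910 (8.24%) were lower and 1037 higher in the first, with a median of 0.11, and 237 (2.14%) were lower in the second, with a median of -0.06. The medians of the 45 genes were then -0.28 and -0.35. The 2 higher genes were ORC4 and ORC5, and both were also called higher after quantile normalization, where 13 were lower, and relative to genes of like level, where 14 were lower. Of all genes, 9.45% were lower and 751 of 10953 higher after quantile normalization. Relative to genes of like level 11.1% were lower and 627 of 10958 higher.

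**Figure D2:**
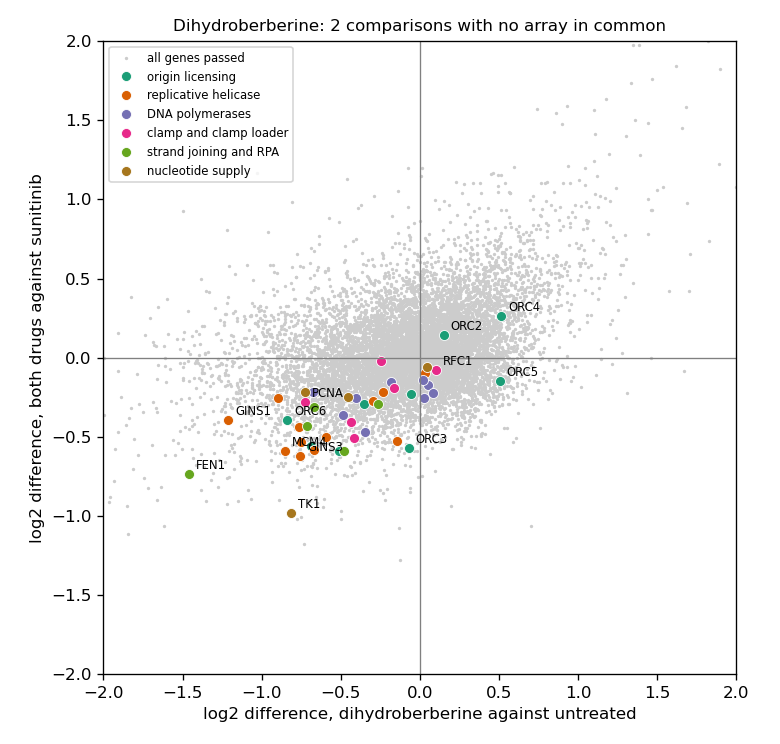
Log2 difference with dihydroberberine against untreated cells (horizontal) and with both drugs against sunitinib (vertical), with the 45 genes coloured by role and all genes that passed the floor in grey; genes beyond 2 on either axis are not drawn. FEN1 lies at -1.46 and -0.74 and TK1 at -0.81 and -0.98, while ORC4 is at 0.51 and 0.26.

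The licensing genes were divided. Of 9 genes, 6 were lower and 3 higher in sign with dihydroberberine against untreated cells, with a median of -0.07 that turned to 0.06 when the arrays were centred on the genes above the floor, and 7 were lower with both drugs against sunitinib, with a median of -0.29. ORC1, the ATPase subunit whose gene is an E2F target, read 8.67 in untreated cells, 8.16 with dihydroberberine, 8.34 with sunitinib and 7.75 with both. ORC6, the smallest subunit, read 10.86, 10.02, 10.77 and 10.38 in the same order, which is kept from here on. Both were highest without drug: ORC1 was 1.43-fold and 1.5-fold lower with dihydroberberine in the 2 pairs, and ORC6 1.79-fold and 1.31-fold lower.

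Subunits of the same complex went the other way. ORC4 read 10.07, 10.58, 10.39 and 10.65, ORC5 9.34, 9.84, 9.86 and 9.72, and ORC2 9.08, 9.23, 9.18 and 9.32. By the probe sets used, the untreated array was the lowest of the 4 for each of these 3 core subunits. Another ORC2 probe set read 7.91 in untreated cells and 7.79 with sunitinib. ORC4 was 1.43-fold and 1.20-fold higher with dihydroberberine in the 2 pairs, and just under 1.5-fold higher with both drugs (a difference of 0.58). Its 3 probe sets ran from -0.34 to 0.51 in the first pair, so they did not share a sign. The -0.34 came from a probe set under the floor on both arrays of that pair (6.55 and 6.21). In the second pair that probe set read 7.07 with sunitinib and 6.85 with both drugs, a difference of -0.22. The 3 probe sets of ORC5 ran from 0.33 to 0.51 against untreated cells but from -0.15 to 0.01 with both drugs against sunitinib. ORC3, which read 8.73, 8.66, 9.23 and 8.65, was high only on the sunitinib array, by 0.50, and its 6 probe sets above the floor ran from 0.35 to 0.74 there.

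The loading factors and their inhibitor differed from each other. CDT1, which brings the MCM ring to ORC, read 9.86, 9.17, 9.12 and 8.56, lower with each drug and lowest with both. It was 1.61-fold lower with dihydroberberine, 1.47-fold with both drugs than with sunitinib, 1.66-fold with sunitinib and 2.45-fold with both. The difference with dihydroberberine ran from -0.69 to -0.43 over the alternatives, and its 3 probe sets were negative in every comparison, from -0.69 to -0.17 with dihydroberberine and from -0.73 to -0.54 with sunitinib. CDC6, the ATPase that works with CDT1, read 11.40, 11.05, 11.53 and 11.24, 1.28-fold lower with dihydroberberine and 1.22-fold lower with both drugs than with sunitinib. GMNN, the inhibitor of CDT1, read 10.74, 10.69, 10.96 and 10.73, so that its differences to untreated were -0.06, 0.21 and -0.02 where those of CDT1 were -0.69, -0.73 and -1.29.

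The helicase had the lowest medians of the 6 groups in both dihydroberberine pairs as deposited. Of its 12 genes 8 and 3 were called lower in these pairs, where the shares of all genes were 12.6% and 1.47%. In sign 11 were lower with dihydroberberine and 12 with both drugs against sunitinib, with medians of -0.71 and -0.47. These medians ran from -0.75 to -0.58 and from -0.53 to -0.43 over the alternatives. The promoters of the 4 helicase genes printed here were chosen because they hold a spelled-out E2F motif and had the largest mean difference with dihydroberberine among genes that do. Each is given 5′ to 3′ on the strand of its gene, from 200 bases before to 30 after the RefSeq start, with the motif or its reverse complement in capitals. They are GINS1 at chr20:25407473-25407702 (plus strand), GINS3 at chr16:58392271-58392500 (plus), MCM2 at chr3:127598211-127598440 (plus) and MCM7 at chr7:100101368-100101597 (minus), all in GRCh38.p14.
GINS1: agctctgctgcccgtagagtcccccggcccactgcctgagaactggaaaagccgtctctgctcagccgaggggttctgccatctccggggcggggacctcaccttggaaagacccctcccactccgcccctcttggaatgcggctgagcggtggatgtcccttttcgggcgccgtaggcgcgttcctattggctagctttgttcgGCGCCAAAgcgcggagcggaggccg
GINS3: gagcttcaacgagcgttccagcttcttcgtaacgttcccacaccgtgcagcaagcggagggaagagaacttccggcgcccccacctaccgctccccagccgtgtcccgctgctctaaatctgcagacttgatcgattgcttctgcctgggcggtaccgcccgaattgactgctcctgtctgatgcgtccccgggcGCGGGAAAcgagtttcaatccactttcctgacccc
MCM2: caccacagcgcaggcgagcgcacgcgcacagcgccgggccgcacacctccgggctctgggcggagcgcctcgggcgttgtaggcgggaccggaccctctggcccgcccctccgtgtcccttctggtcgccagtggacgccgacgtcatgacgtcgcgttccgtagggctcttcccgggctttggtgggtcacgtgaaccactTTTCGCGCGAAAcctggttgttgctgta
MCM7: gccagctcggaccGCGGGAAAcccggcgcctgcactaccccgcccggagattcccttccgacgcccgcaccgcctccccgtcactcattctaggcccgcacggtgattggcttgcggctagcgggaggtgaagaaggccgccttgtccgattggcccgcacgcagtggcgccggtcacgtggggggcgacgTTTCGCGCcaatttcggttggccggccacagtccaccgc

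The capitals mark TTTGGCGC (as its reverse complement) in GINS1, TTTCCCGC (as its reverse complement) in GINS3, and TTTCGCGC on both strands, overlapping, in MCM2. In MCM7 they mark TTTCCCGC (as its reverse complement) and TTTCGCGC. GINS1, a subunit of the GINS complex, read 11.15, 9.94, 10.88 and 10.49. It was lowest with dihydroberberine alone, 2.32-fold below untreated, and 1.31-fold lower with both drugs than with sunitinib. GINS3, another subunit, read 9.73, 8.97, 9.57 and 8.95, with both arrays that had dihydroberberine below both that did not.

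The other subunits of this complex shared that order. GINS2 read 9.81, 9.04, 9.52 and 9.08, and GINS4 read 9.17, 8.27, 8.60 and 8.35. In all 4 GINS genes the dihydroberberine array and the array with both drugs were the 2 lowest. GINS1, GINS2, GINS3 and GINS4 were 1.58-fold, 1.66-fold, 1.71-fold and 1.76-fold lower with both drugs than untreated. For GINS1 and GINS4 the difference from sunitinib to both drugs (-0.39 and -0.25) was smaller in size than that from untreated to dihydroberberine (-1.21 and -0.89), and the deviations from additivity, that is the difference between those 2 steps, were 0.82 and 0.64. The -0.89 of GINS4 was -0.58 at its smallest over the alternatives. No error can be given for either gene, and the median of this deviation over all genes was 0.06.

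The MCM ring itself was lower in each of its 6 subunits in both dihydroberberine pairs, by unequal amounts. MCM7 read 13.18, 12.51, 12.86 and 12.28, MCM4 11.70, 10.84, 11.26 and 10.67, and MCM2 10.24, 9.48, 9.67 and 9.14. In these 3 the order was the same: untreated, then sunitinib, then dihydroberberine, then both. MCM2 was 2.14-fold and MCM4 2.04-fold lower with both drugs, and the 4 probe sets of MCM2, 5 of MCM4 and 4 of MCM7 were negative in both dihydroberberine pairs. MCM3 (10.72, 10.12, 10.70 and 10.20) and MCM6 (10.83, 10.53, 10.84 and 10.57) were lower where dihydroberberine was present. With sunitinib against untreated cells MCM3 differed by -0.02 and MCM6 by 0.01, but the other MCM6 probe sets gave 0.57 and 0.13 and the mean of all was 0.24. MCM5 read 8.17, 7.94, 7.95 and 7.73, so that its differences to untreated were -0.23 and -0.22 with the single drugs and -0.44 with both.

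CDC45, which joins the ring when it is activated, read 8.90, 8.75, 8.78 and 8.25. It was lowest with both drugs: the differences to untreated were -0.15 and -0.12 for the single drugs and -0.65 for both. Its probe sets differed for the single drugs, and their mean was -0.26 with dihydroberberine and -0.32 with sunitinib. MCM10, an initiation factor that binds the ring but is no part of it, read 8.97, 9.00, 9.21 and 9.11. By the probe sets used it was the single helicase gene above untreated with both drugs, by 0.14. Its other probe sets gave -0.06 and 0.00 in that comparison.

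The polymerases were lower by less than the helicase. Of 9 genes 5 were lower in sign with dihydroberberine against untreated cells, with a median of -0.19, and 9 with both drugs against sunitinib, with a median of -0.22. The first median was -0.35 with the floor at the 75th percentile and -0.05 with centred arrays. POLE, the catalytic subunit of the leading-strand polymerase ε, read 10.22, 9.54, 9.75 and 9.53. POLD1, the catalytic subunit of the lagging-strand polymerase δ, read 9.39, 8.90, 8.98 and 8.62. Both were highest without drug, and with both drugs POLE was 1.60-fold and POLD1 1.70-fold lower. POLD2 and POLA2, accessory subunits of polymerases δ and α, read 12.44, 12.04, 12.28 and 12.03, and 8.74, 8.39, 8.59 and 8.12. POLE2, an accessory subunit of polymerase ε, differed by -0.19 with dihydroberberine, -0.26 with sunitinib and -0.16 with both drugs against sunitinib.

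The catalytic subunits of polymerase α and primase were not lower with dihydroberberine alone. POLA1, the catalytic subunit of polymerase α, read 9.23, 9.26, 9.64 and 9.39, and was lowest without drug. PRIM1 and PRIM2, the primase subunits, read 10.68, 10.73, 10.74 and 10.57, and 8.22, 8.30, 8.08 and 7.86. POLD3, an accessory subunit of polymerase δ, read 8.36, 8.38, 8.43 and 8.29. With both drugs against sunitinib these 4 differed by -0.26, -0.17, -0.22 and -0.14, so the second pair gave a negative sign where the first gave a positive one of 0.08 or less. The 2 probe sets of PRIM2 were of opposite sign with dihydroberberine.

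The clamp and its loader split by subunit. PCNA, the sliding clamp, read 13.20, 12.47, 13.19 and 12.91, 1.65-fold lower with dihydroberberine, different from untreated by -0.01 with sunitinib, and 1.21-fold lower with both drugs than with sunitinib. A single probe set of PCNA lay above the floor, and the mean with the dim one gave -0.23 for dihydroberberine against untreated cells. RFC2 read 10.95, 10.53, 10.67 and 10.16, and RFC5 read 11.16, 10.73, 10.89 and 10.49. By the probe sets used, these 2 small subunits of the loader were lower with each drug and lowest with both, at 1.73-fold and 1.60-fold. Another RFC5 probe set was lowest with dihydroberberine alone (10.16) and differed by 0.07 with both drugs against sunitinib. RFC3 (10.34, 10.17, 10.55 and 10.36) and RFC4 (11.06, 10.82, 10.99 and 10.97) differed by -0.17 and -0.25 with dihydroberberine and by -0.19 and -0.02 with both drugs against sunitinib. RFC1, the large subunit, read 8.39, 8.49, 8.82 and 8.74, lowest without drug and 1.35-fold higher with sunitinib. In the 6 genes 1 was called lower with dihydroberberine and 0 with both drugs against sunitinib, where the shares of all genes were 12.6% and 1.47%. The medians were -0.33 and -0.24, and the first was -0.20 with centred arrays.

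All 5 genes that join strands or cover single strands were lower in sign in both dihydroberberine pairs, with medians of -0.67 and -0.43. Averaging every probe set of a gene gave -0.36 for the first. FEN1, the nuclease that removes the flaps of lagging-strand fragments, read 11.30, 9.84, 11.08 and 10.34. It was the lowest of the 45 genes with dihydroberberine, 2.75-fold below untreated, and 1.67-fold lower with both drugs than with sunitinib, with its 3 probe sets between -1.51 and -1.36 and between -0.74 and -0.46. LIG1, the ligase that seals the fragments, read 9.43, 8.72, 9.12 and 8.69. It was 1.64-fold lower with dihydroberberine and 1.35-fold lower with both drugs than with sunitinib, but its 6 probe sets ran from -0.71 to 0.03 in the first pair, and the mean was -0.36.

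RPA1, RPA2 and RPA3 form the protein that covers single-stranded DNA. RPA1 read 12.13, 11.46, 12.10 and 11.78, RPA2 11.42, 10.95, 11.12 and 10.53, and RPA3 11.23, 10.97, 10.96 and 10.67. RPA1 was lowest with dihydroberberine alone, and RPA2 and RPA3 with both drugs. For RPA1 the dihydroberberine differences were -0.67 and -0.31 in the 2 pairs, and -0.27 and -0.10 with the mean of all its probe sets. RPA2 was 1.85-fold and RPA3 1.48-fold lower with both drugs than untreated, and RPA1 1.28-fold.

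**Figure D3:**
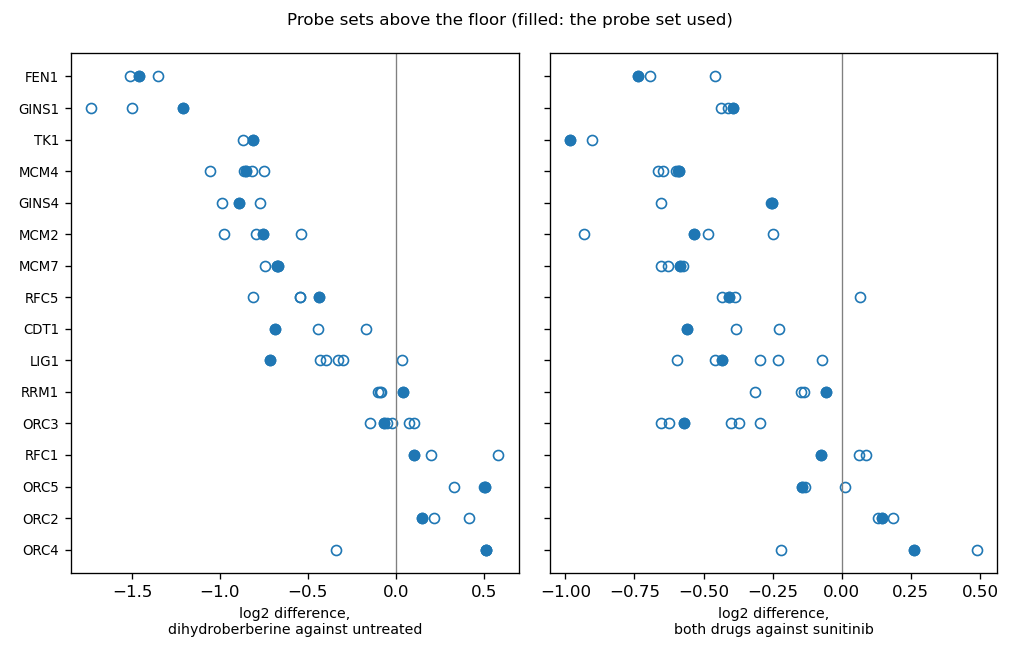
Log2 differences of the single probe sets above the floor for 16 genes, with dihydroberberine against untreated cells (left) and with both drugs against sunitinib (right); filled points are the probe sets used for the values in the text. The probe sets of FEN1, GINS1, TK1, MCM4, MCM2 and MCM7 are all negative in both panels, whereas those of ORC4 lie on both sides of 0.

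In nucleotide supply, TK1 is the cytosolic thymidine kinase of the salvage pathway. By the probe sets used, TK1 had with CDT1 the largest difference of the 45 genes with both drugs against untreated cells. It read 12.01, 11.20, 11.70 and 10.72, 1.76-fold lower with dihydroberberine, 1.98-fold lower with both drugs than with sunitinib, and 2.45-fold lower with both than untreated. Its 2 probe sets gave -0.81 and -0.87 in the first dihydroberberine pair and -0.98 and -0.90 in the second. TYMS, thymidylate synthase, read 12.85, 12.12, 12.52 and 12.30, 1.65-fold lower with dihydroberberine alone and 1.16-fold lower with both drugs than with sunitinib. The 2 subunits of ribonucleotide reductase differed: RRM2, the small subunit made in S phase, read 12.53, 12.07, 12.16 and 11.91, and RRM1, the large subunit, 11.21, 11.25, 11.06 and 11.00. RRM2 was 1.53-fold and RRM1 1.15-fold lower with both drugs. The 4 probe sets of RRM1 ran from -0.10 to 0.04 with dihydroberberine and from -0.31 to -0.06 with both drugs against sunitinib.

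Sunitinib alone gave smaller differences in these genes. Against untreated cells the median of the 45 genes was -0.15 (all genes: -0.04), and with both drugs against dihydroberberine, which shares no array with it, -0.02 (all genes: -0.01). With centred arrays these medians were -0.07 (all genes: 0.05) and -0.13 (all genes: -0.12). CDT1 was the single gene called lower in the first comparison, where the share of all genes was 3.78%, and the single one in the second, where it was 2.75%. No gene was called higher in either (1.61% and 10.3% of all genes). With the arrays centred on the genes above the floor, after quantile normalization or relative to genes of like level, the first count was 1 lower and 1 higher, CDT1 and ORC5. Of all genes 2.29%, 2.68% and 3.18% were then lower, and 339, 217 and 188 genes were higher. The second comparison uses the dihydroberberine array, whose controls are given above. The sign was negative in both pairs for 22 of 45 genes (48.9%), against 32.4% of all genes, and positive in both for 9.

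**Figure D4:**
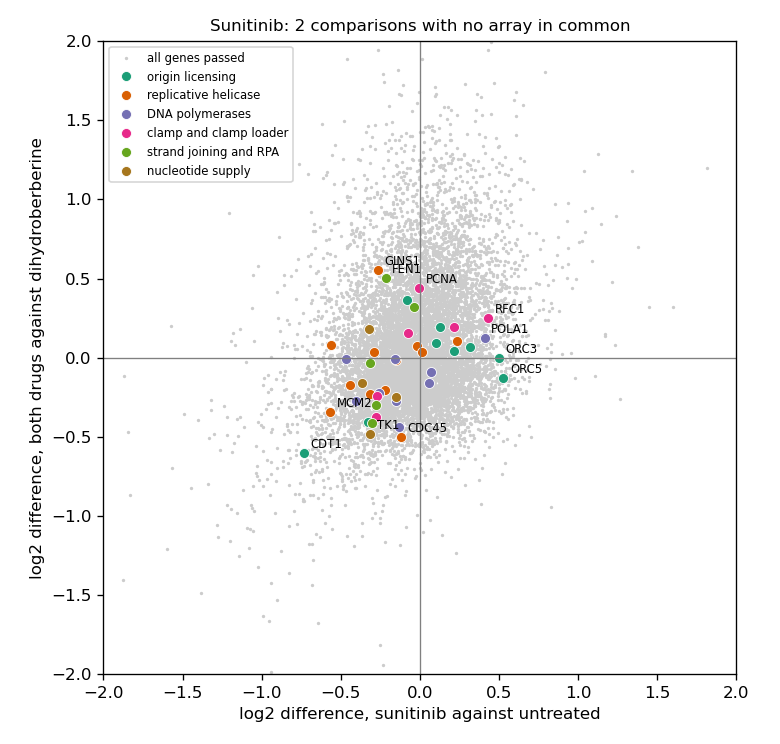
Log2 difference with sunitinib against untreated cells (horizontal) and with both drugs against dihydroberberine (vertical), drawn as for dihydroberberine, with genes beyond 2 on either axis left out. CDT1 lies at -0.73 and -0.60, GINS1 and FEN1 lie left of 0 and above 0, and RFC1 is at 0.43 and 0.25.

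After CDT1, the genes with the largest mean difference over both sunitinib pairs were MCM2 (-0.57 and -0.35), TK1 (-0.31 and -0.48), ORC1 (-0.33 and -0.41) and RPA2 (-0.30 and -0.41). The same 5 genes were lower in sign in both dihydroberberine pairs, and all of them were lowest on the array with both drugs. For RPA2 another probe set gave 0.08 with sunitinib against untreated cells, where the probe set used gave -0.30. The groups had medians with sunitinib against untreated of 0.13 for licensing, -0.24 for the helicase, -0.15 for the polymerases, -0.04 for the clamp and its loader, -0.27 for strand joining and RPA, and -0.32 for nucleotide supply. The clamp and loader median turned to 0.05 after quantile normalization. In nucleotide supply and in strand joining all 4 and all 5 genes were negative. The median deviation from additivity of the 45 genes was 0.03 (all genes: 0.06), and it was -0.14 after quantile normalization (all genes: -0.05).

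An E2F motif was more frequent in the promoters of these genes than in promoters at large. RefSeq promoter windows (250 bases before to 50 after a start, GRCh38.p14) were matched by symbol for 39 of the 45 genes, not for MCM4, MCM5, GINS4, POLD3, RPA2 and RPA3. Of the 39, 19 (48.7%) held TTTGGCGC, TTTCCCGC, TTTGCCGC or TTTCGCGC on either strand, against 6.68% of the 9081 genes above the floor with a window and 3.31% of all 35116 windows. CCAAT, on either strand, was in 61.5% of the genes and 42.9% of genes above the floor (34.6% of all windows), and TTTGAA in 2.56% (1 gene, RRM1) and 13.6% (15.2% of all windows). A match is a run of letters and not a measured site, and a gene with several windows counts once if any of them matches.

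The 19 genes with an E2F match had a median of -0.67 with dihydroberberine against untreated cells, and 18 of them were negative. The 20 without one had a median of -0.33, with 12 negative. With both drugs against sunitinib the medians were -0.39 and -0.25, with 19 and 18 negative. The 2 sets overlapped widely. FEN1 and TK1, which by the probe sets used had the largest negative difference in the first and the second comparison, had no match, and POLA1 and ORC3 had one. For sunitinib against untreated cells the medians were -0.15 and -0.13. The split was mixed with role: of the helicase genes with a window, only CDC45 and MCM10 had no match. The part of role in the difference between the sets was not tested. ORC1, named above as an E2F target, had no match either, so the lack of a match does not mean a lack of E2F control.

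**Figure D5:**
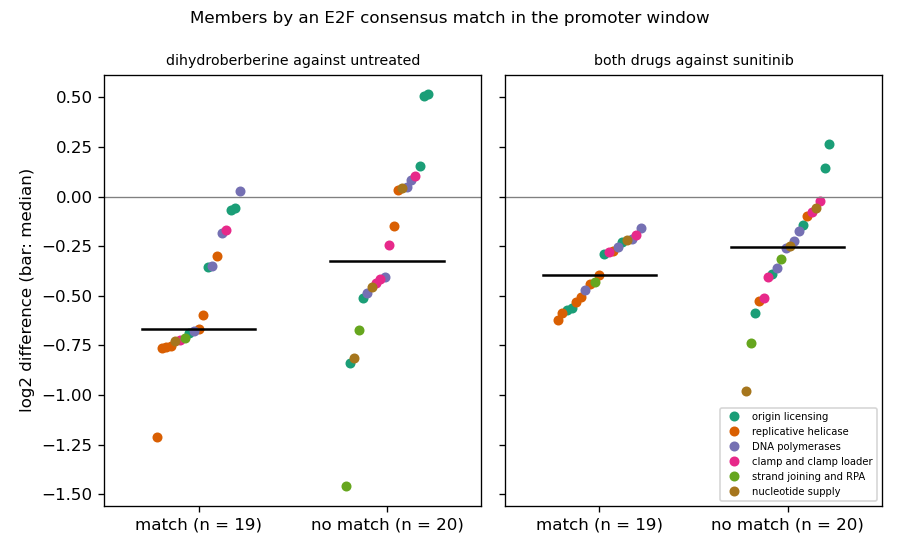
Log2 differences of the 39 genes with a promoter window, split by whether the window holds one of the 4 spelled-out E2F motifs, with dihydroberberine against untreated cells (left) and both drugs against sunitinib (right). Points are genes coloured by role and bars are medians; the medians are -0.67 and -0.33 on the left and -0.39 and -0.25 on the right.

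Other genes of the same processes gave smaller medians. Of 30 further replication genes, 27 passed the floor, with medians of -0.26 and -0.18 in the 2 dihydroberberine pairs, with 5 and 1 called lower and 0 and 1 higher. The shares of all genes in these pairs were 12.6% and 1.47% lower, and 4.86% and 3.58% higher. ASF1B, a histone chaperone of S phase, was 2.55-fold and 1.87-fold lower, and TIMELESS, a fork protection factor, 1.83-fold and 1.49-fold. CHAF1A, which deposits histones behind the fork, was 1.91-fold and 1.23-fold lower. TICRR, which helps to load CDC45, differed by -1.07 and -0.40 but was above the floor on the untreated array alone. Of 23 further nucleotide genes 22 passed the floor, with medians of -0.16 and -0.03, 4 and 0 called lower and 1 and 1 higher. DTYMK, the thymidylate kinase, was 1.84-fold and 1.34-fold lower, whereas CTPS1, a CTP synthase, was 1.69-fold and 1.42-fold higher. SAMHD1, which degrades deoxynucleotides, was 2.09-fold and 1.21-fold lower. RRM2B, the form of the small reductase subunit induced by p53, read 8.40, 8.70, 8.67 and 9.43, 1.23-fold and 1.69-fold higher in the 2 pairs. It was highest with both drugs, where the RRM2 probe set used was lowest. Another RRM2 probe set was lowest with dihydroberberine alone, at 11.62 against 11.96 with both.

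Among 20 regulators of the G1 to S step, 19 passed the floor, with medians of -0.50 and -0.15 in the 2 dihydroberberine pairs, 8 and 1 called lower and 1 and 0 higher. The shares of all genes were again 12.6% and 1.47% lower, and 4.86% and 3.58% higher. CCNE2, a cyclin of this step, was lower by -1.38 and -0.61, with the dihydroberberine array under the floor at 6.11. SKP2, a ubiquitin ligase subunit, was 2.35-fold and 1.27-fold lower, and CDC25A, a phosphatase that activates CDK2, 1.87-fold and 1.34-fold. The activator E2F1 read 8.56, 8.07, 8.22 and 8.02, E2F2 9.00, 8.12, 8.66 and 8.31, and E2F3 9.15, 8.04, 9.09 and 9.16. E2F1 and E2F2 were highest without drug, while E2F3 was low on the dihydroberberine array only. E2F5, which belongs to the repressors, was higher by 0.83 and 0.53 where dihydroberberine was present. E2F4 and E2F6 differed by -0.11 and -0.51 with dihydroberberine and by -0.11 and -0.15 with both drugs against sunitinib. E2F7 was lower by -0.64 and -0.31, and E2F8 lay under the floor on all arrays.

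Mitotic genes, a list set beside the 45 for comparison, had medians of -0.43 and -0.30 over 16 genes in the dihydroberberine pairs, beside -0.42 and -0.29 for the replication genes. With sunitinib against untreated cells theirs was -0.32 against -0.15, and with both drugs against dihydroberberine -0.10 against -0.02. No test of the difference between the lists was run. KIF20A, a mitotic kinesin, was 2.33-fold and 1.69-fold lower with dihydroberberine, and CCNB1, cyclin B1, 1.68-fold and 1.56-fold. FOXM1, a transcription factor of mitotic genes, was 2.14-fold and 1.35-fold lower, and KIF11, a spindle kinesin, 2.01-fold and 1.30-fold.

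Of the 45 genes, 29 had 2 or more probe sets above the floor. All of a gene's probe sets had the same sign for 23 of the 29 with dihydroberberine against untreated cells, for 25 with both drugs against sunitinib, for 26 with sunitinib against untreated cells, for 18 with both drugs against dihydroberberine and for 25 with both drugs against untreated cells. The median SD between probe sets of a gene was 0.12, 0.08, 0.11, 0.09 and 0.13 in these comparisons. This spread is within arrays and does not measure the error between cultures.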

How the data were processed

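RNA of 4 A549 cultures was measured on 1 array each. Per the labels' protocols it was extracted with TRIZOL and made into biotin-labelled cRNA with a 3′ IVT kit for GeneChips. The array is called an Agilent one in the design text, but the probe sets carry Affymetrix names. The authors deposited log2 probe set signals which, per the submitters' processing notes, come from Affymetrix Expression Console. How probes were summarized and arrays scaled is not given in the sources used here. Values ran from 3.01 to 15.4, from which the log2 scale was taken.

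Of 49395 probe sets, 102 were controls. A platform annotation gave 1 symbol for 44988, several for 1832 and none here for 2473. By gene identifier 44961 matched RefSeq (GRCh38.p14), and 0 symbols were updated. A gene is its probe set of highest mean. Genes with 1 array at or above the floor were kept. Differences of log2 values were computed with Python 3.11.15 and pandas 2.3.3, and the scripts were tested on simulated data. With 1 array per group no test was run, and precision is limited by the 4 arrays. The members and lists were chosen with earlier results of these data known. Named genes were those with the largest differences in each role group, those of opposite sign and those with disagreeing probe sets, and up to 4 per other list, with the E2F genes. Promoters were printed for the 4 genes with an E2F motif and the lowest mean difference. Alternatives were the mean of all probe sets, no _x_at or _s_at probe sets, quantile normalization, centring, a floor at the 75th percentile, no floor, values raised to the floor and a 2-fold size, and, chosen after seeing the data, differences relative to the median of 20 bins of mean level.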

Additional observations from a re-analysis of the deposited data

Results flagged for a closer look

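For 4 results a drug gave differences of opposite sign without and with the other drug, each larger than the median SD between probe sets of a gene. These differences between pairs were not tested, and each pair is 2 single arrays. ORC5 was higher with dihydroberberine against untreated cells (0.51) and lower with both drugs against sunitinib (-0.15), a change of -0.65. With sunitinib GINS1 went from -0.27 against untreated cells to 0.55 with both drugs against dihydroberberine, a change of 0.82. FEN1 went from -0.22 to 0.50, a change of 0.72, and TYMS from -0.32 to 0.18, a change of 0.51. The positive values of these 3 rest on the dihydroberberine array, on which GINS1, FEN1 and TYMS had their lowest signals.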

How the results depend on the processing

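Of the 8 alternatives to the values, no floor and values raised to the floor could not move the 45 genes, which all lay above it on all arrays. The 5 median differences of the 45 genes changed no sign under any of the 8. They moved by less than the median SD between probe sets over all genes with several (0.10 to 0.14 by comparison). Centring moved 2 of them by more than that SD over the 45 genes: from -0.42 to -0.28 with dihydroberberine (SD 0.12) and from -0.02 to -0.13 with both drugs against dihydroberberine (SD 0.09). Quantile normalization also moved the median with both drugs against dihydroberberine by slightly more than that SD, to -0.11. The counts of called genes moved more. With arrays centred on the genes above the floor, 11 were lower and 2 higher with dihydroberberine against untreated cells, 11 lower with both drugs against sunitinib and 3 lower with both drugs against dihydroberberine, and 1 was higher both with sunitinib and with both drugs against untreated cells. Of all 11049 genes that then passed, 8.24%, 2.14% and 5.29% were lower in the same order. Those higher numbered 1037 with dihydroberberine, 339 with sunitinib and 841 with both drugs against untreated cells. Quantile normalization gave 2 higher with dihydroberberine, 1 higher with sunitinib, 2 lower with both drugs against dihydroberberine and 1 higher with both drugs against untreated cells, and differences relative to genes of like level gave 2, 1 and 1 higher in the comparisons with untreated cells. Of all 10953 genes passed after quantile normalization, 751, 217 and 852 were higher in the comparisons with untreated cells. There 3.83% were lower with both drugs against dihydroberberine. Relative to genes of like level, 627, 188 and 851 of all 10958 genes were higher in the comparisons with untreated cells. Without _x_at and _s_at probe sets 2 were lower and 1 higher with sunitinib, and 1 was higher with both drugs against untreated cells. Of all 10412 genes that then passed, 4.04% were lower and 167 higher with sunitinib, and 681 were higher with both drugs. With the mean of all probe sets 1 was higher with both drugs against dihydroberberine, as were 574 of all 9147 genes. At 2-fold 2 were lower with dihydroberberine, 4 with both drugs against untreated cells and 0 in each of the other comparisons. Of all 10958 genes, 386 were 2-fold lower with dihydroberberine and 164 with both drugs against untreated cells. The other comparisons had 64 with sunitinib, 13 with both drugs against sunitinib and 48 with both drugs against dihydroberberine. The median deviation from additivity was -0.14 after quantile normalization (all genes: -0.05) and -0.17 after centring (all genes: -0.14), against 0.03 (all genes: 0.06).

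Over all genes, the share of lower genes among those called was 72.1% with dihydroberberine, 58.0% after quantile normalization and 46.7% after centring. It was 70.2%, 57.5% and 42.7% with sunitinib, and 29.1%, 36.1% and 44.4% with both drugs against sunitinib. With both drugs against dihydroberberine centring moved it from 21.0% to 41.5%. Members kept under each alternative ranged from 41 at the 75th percentile floor to 45. No paired analysis was possible because no condition has replicates with numbers to pair, and none could be left out. An additive fit of the 2 drugs was not run.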
